A study of Macaca fascicularis and Mus musculus with 42 samples.

Results

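The genes described here encode 8 proteins of the cell surface that are used to recognise or sort germ cells and pluripotent stem cells, namely EPCAM, CD24, DPP4, PDPN, THY1, ALPL, PROM1 and CD38. They were taken by symbol from the 26018 entries of the monkey table and, as orthologs, from the 34896 genes of the mouse table, in which all 8 have an entry. Their gene IDs in the monkey table are 102123042 (EPCAM), 101867055 (CD24), 102133935 (DPP4), 102135366 (PDPN), 102139037 (THY1), 101926551 (ALPL), 101865661 (PROM1) and 102126394 (CD38), and all 8 IDs carry the same symbols in RefSeq. The libraries hold RNA from the 3′ ends of transcripts of cynomolgus monkey (Macaca fascicularis) embryonic stem cells (ESC) and of cells on the way to primordial germ cell-like cells (PGCLC), which are cultured counterparts of the founders of the germ line.

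Surface proteins of these kinds are named in part for the antibodies that detect them, and several are used to enrich germ cells from mixed cultures. EPCAM is an epithelial adhesion molecule, and CD24 is a small, heavily glycosylated protein held in the membrane by a glycosylphosphatidylinositol (GPI) anchor. DPP4 (CD26) is a peptidase that trims secreted peptides such as the chemokine CXCL12, and PDPN (podoplanin) is a mucin-type glycoprotein that binds ezrin and moesin at the cell cortex. THY1 (CD90) is a GPI-anchored member of the immunoglobulin superfamily. ALPL is the tissue-nonspecific alkaline phosphatase, the enzyme behind the classical histochemical stain of germ cells and of pluripotent cells. PROM1 (CD133) is a pentaspan protein of membrane protrusions, and CD38 is an ectoenzyme that consumes NAD. Human PGCLC have been sorted with antibodies to EPCAM and to integrin alpha 6, and CD38 marks human germ cells.

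The reporter lines 656BTAG42 and 656BTAG63 carry Blimp1-tdTomato and TFAP2C-EGFP, which report PRDM1 (Blimp1) and TFAP2C, transcription factors of the early germ line. The gate names are taken to mean the PRDM1 reporter (BT) and the TFAP2C reporter (AG). For induction, aggregates received LIF at 1000 U/ml and Y27632 at 10 µM besides, in ng/ml, 200 of BMP4, 100 of SCF and 50 of EGF, either in GK15, which is GMEM with 15% serum replacement, or in aRB27, which is Advanced RPMI1640 with B27. All induced libraries used here come from 656BTAG42. BTAG positive cells gave 2, 2 and 3 libraries on days 2, 4 and 6 in aRB27, and 1, 1, 2, 2 and 2 libraries on days 2, 4, 6, 8 and 10 in GK15. BT single positive cells in aRB27 gave 1 library on day 2 and 2 on day 4, and AG mid positive cells gave 1 library in aRB27 on day 2 and 1 in GK15 on day 4. Undifferentiated ESC of the reporter lines, kept in AITS+IF20 with bFGF (20 ng/ml), gave 4 libraries, of which library 2 is 656BTAG63. ESC without transgenes, likewise with bFGF at 20 ng/ml, gave 2 libraries of CMK6 and 1 each of the lines 656, 681F and 22. Mouse PGCLC of the line R8 (Blimp1-membraneVenus, Dppa3-ECFP), made from epiblast-like cells in GK15 with the same factors, gave 2 libraries on day 6 and 2 on day 4.

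Levels are in RPM, the reads of a gene scaled to a library total of 1000000 reads. Of the 33 reporter-line libraries, 9 were left out because their label is doubtful, and 6 of these carry a PRDM1 level that goes against the labelled gate. The library labelled reporter ESC library 5 held 253 RPM of PRDM1, and this gene was at 0 to 4.9 RPM in 3 libraries labelled GK15 BTAG. It was 194 and 145 RPM in 2 libraries labelled GK15 AG mid. In the 24 libraries kept, PRDM1 was 118 to 318 RPM in the 15 BTAG libraries, 85.1 to 114 RPM in BT cells, 0.90 and 11.1 RPM in AG mid cells and at most 2.59 RPM in ESC. TFAP2C was 337 to 717 RPM in BTAG cells, 0.34 to 3.48 RPM in BT cells, 146 and 24.4 RPM in the AG mid libraries of aRB27 and GK15 and 2.94 to 14.2 RPM in reporter ESC. The reads recovered from the RPM values were 1076941 to 6798751 per kept monkey library (median 2274961), so a single read stood for 0.147 to 0.929 RPM. The ESC groups hold several lines, and for induced cells and libraries of 1 line the labels do not state separate cultures, so p-values there measure the spread between these samples alone, which may be technical. Libraries are numbered within a group in the order of their records.

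DPP4 showed the largest log2 difference from ESC of the 7 tested genes on days 2 and 6 and on days 8 and 10. No read of DPP4 was found in the 4 reporter ESC libraries. BTAG cells had 25.1 and 29.2 RPM in aRB27 and 70.2 RPM in GK15 on day 2, and 185 and 62.3 RPM in aRB27 and 163.5 RPM in GK15 on day 4. On day 6 DPP4 lay at 295, 277 and 265 RPM in aRB27 and at 264 and 285 RPM in GK15. It then lay at 288 and 223 RPM on day 8 and at 256 and 143 RPM on day 10 in GK15. Every BTAG library lay above every ESC library, and the day-6 ranges of both media overlapped.

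As a bound, DPP4 was at least 1212-fold higher on day 6 in GK15 and at least 1231-fold higher in aRB27 than in ESC. On day 2 it was already at least 183-fold higher over both media, and on days 8 and 10 at least 1003-fold. The floor of these bounds is 3 reads over the 4 ESC libraries together, or 0.226 RPM, and covers counting error only. On the log2(RPM + 1) scale, which understates changes of genes with low levels, the difference was 8.11 ± 0.36 on day 6 in GK15 (SE, limma adjusted p = 6.97e-12) and 8.13 ± 0.32 in aRB27 (adjusted p = 1.08e-12). Within the libraries of title code MS134 the day-6 difference was 8.05 in GK15 and 8.21 in aRB27, and within code MS162 it was 8.16 and 8.09. In bulk RNA, a smaller share of cells with a transcript and less transcript per cell cannot be told apart. From the highest mean down, aRB27 day 6, GK15 day 6, day 8, day 10 and day 4, and aRB27 day 4 followed each other, and the range of each overlapped that of the next.

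PDPN and ALPL were higher than in ESC from day 2. PDPN had 91.5, 118, 90.1 and 262 RPM in the 4 ESC libraries. On day 2 it had 751 and 790.01 RPM in aRB27 and 758 RPM in GK15, and on day 4 it had 1219 and 1259.8 RPM in aRB27 and 1629.8 RPM in GK15. On day 6 the libraries of aRB27 had 1573, 1619 and 912 RPM and those of GK15 had 1717 and 1408 RPM. The 4 GK15 libraries of days 8 and 10 had 1249.9 to 1422 RPM. The lowest BTAG library of day 2 lay above the highest ESC library, and the ranges of days 4 and 6 overlapped.

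On day 6 PDPN averaged 1562 ± 219 RPM in GK15 (SD, n = 2) and 1368 ± 396 RPM in aRB27 (n = 3), against 140.4 ± 81.97 RPM in ESC (n = 4), which is 11.1-fold and 9.74-fold higher. The log2 difference was 3.61 ± 0.32 in GK15 (SE, limma adjusted p = 5.77e-08), 3.38 ± 0.28 in aRB27 (adjusted p = 1.96e-08) and 2.59 ± 0.29 on day 2 (adjusted p = 1.95e-06). Within title code MS134 it was 4.03 in GK15 and 3.91 in aRB27 on day 6, and within MS162 it was 3.19 and 2.97.

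ALPL had 44.6, 52.7, 50.6 and 12.4 RPM in ESC. BTAG cells of day 2 had 152.5 and 137 RPM in aRB27 and 150.2 RPM in GK15. On day 4 they had 282 and 307 RPM in aRB27 and 259 RPM in GK15, and on day 6 they had 299.6, 380.5 and 194 RPM in aRB27 and 301 and 256 RPM in GK15. The 4 libraries of days 8 and 10 in GK15 ranged from 232 to 305 RPM. All BTAG libraries lay above all ESC libraries, and those of day 2 lay below those of every later day.

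The mean of ALPL on day 6 was 279 ± 32.0 RPM in GK15 (SD, n = 2) and 292 ± 93.3 RPM in aRB27 (n = 3), against 40.04 ± 18.7 RPM in ESC (n = 4), or 6.96-fold and 7.28-fold higher. Its log2 difference was 2.95 ± 0.44 in GK15 (SE, limma adjusted p = 3.84e-05), 2.97 ± 0.39 in aRB27 (adjusted p = 7.00e-06) and 2.04 ± 0.41 on day 2 (adjusted p = 0.00108). In the order of group means, the 6 BTAG groups of day 4 and later were joined by BT cells of day 2, and both day-2 BTAG groups came below them. The lowest group means of ALPL were the 25.6 and 24.5 RPM of AG mid cells, a single library each, inside the range of reporter ESC (12.4 to 52.7 RPM).

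EPCAM was higher than in ESC from day 6 on and lay inside the ESC range before. ESC libraries had 36.8, 69.9, 30.8 and 18.3 RPM. On day 2 the levels were 33.3 and 37.5 RPM in aRB27 and 49.3 RPM in GK15, and on day 4 they were 37.4 and 23.7 RPM in aRB27 and 51.0 RPM in GK15. These 6 libraries all lay inside the range of ESC. On day 6 EPCAM lay at 175, 129 and 83.4 RPM in aRB27 and at 227 and 266 RPM in GK15, and all 5 of these libraries lay above the highest reporter ESC library. ESC without transgenes had 42.8 to 312 RPM, a range that overlapped these. On days 8 and 10 in GK15 it lay at 344 and 189 RPM and at 316 and 207 RPM.

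For EPCAM the day-2 difference from ESC was 0.26 ± 0.40 on the log2 scale (SE, limma adjusted p = 0.713), which did not pass the threshold. On day 6 the mean was 246 ± 27.8 RPM in GK15 (SD, n = 2) and 129 ± 45.7 RPM in aRB27 (n = 3), against 38.9 ± 22.0 RPM in ESC (n = 4), or 6.32-fold and 3.31-fold higher. The log2 differences were 2.78 ± 0.43 (adjusted p = 5.66e-05) and 1.80 ± 0.38 (adjusted p = 0.00104). On days 8 and 10 the difference was 2.84 ± 0.35 (adjusted p = 2.34e-06). Within title code MS134 the day-6 difference was 2.14 in GK15 and 1.76 in aRB27, and within MS162 it was 3.43 and 2.08. Leaving out the lowest ESC library, library 4, took the day-2 difference to -0.04.

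**Figure D1:**
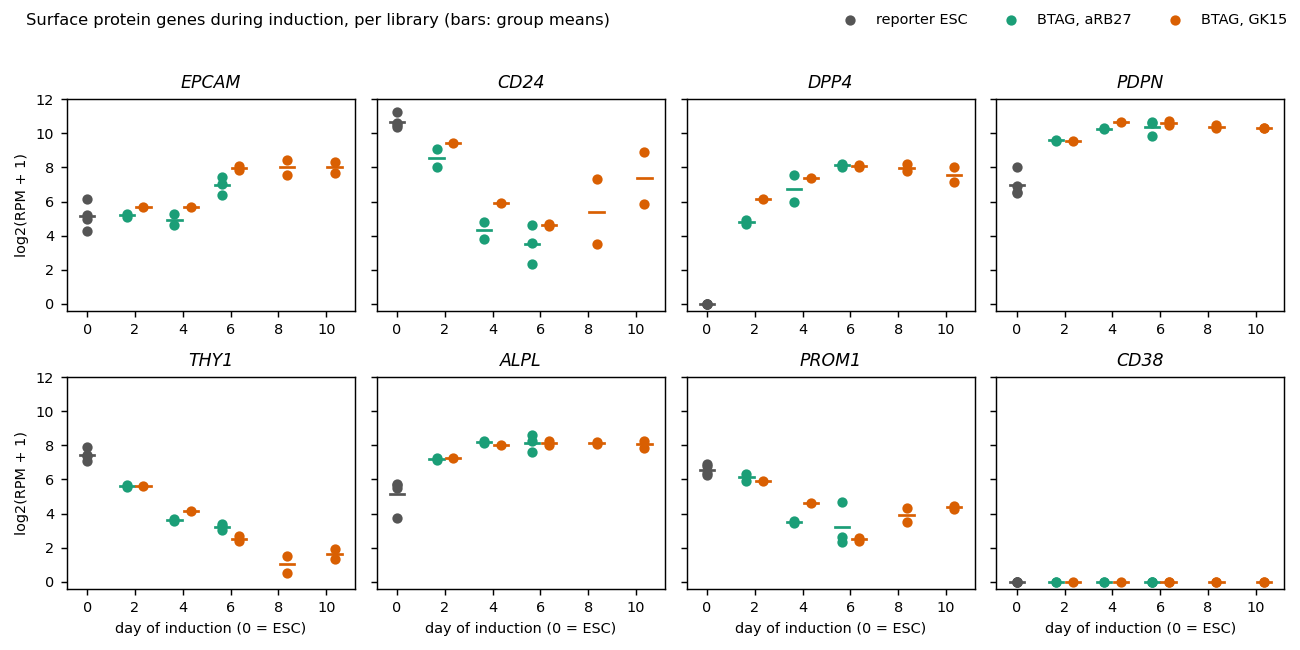
Level of each gene as log2(RPM + 1) in each kept library (points) by day of induction, with bars for the group mean, for reporter ESC (day 0) and BTAG cells in aRB27 and in GK15. DPP4, PDPN and ALPL stood above ESC from day 2, EPCAM from day 6, THY1 lay below ESC on all days, CD24 and PROM1 were lowest near day 6, and CD38 was at 0 in every library drawn.

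CD24, PROM1 and THY1 moved the other way, and CD24 had the widest span of levels among these 3. ESC libraries held 1456, 1566, 2438 and 1322 RPM of CD24. On day 2 the BTAG libraries had 260.01 and 542 RPM in aRB27 and 698 RPM in GK15, and on day 4 they had 13.2 and 26.8 RPM in aRB27 and 59.2 RPM in GK15. On day 6 the levels were 11, 24.04 and 3.97 RPM in aRB27 and 25.0 and 22.3 RPM in GK15. All BTAG libraries of days 2 to 6 lay below all ESC libraries, and day 2 did not overlap with day 4.

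On day 6 CD24 averaged 23.6 ± 1.90 RPM in GK15 (SD, n = 2) and 13 ± 10.2 RPM in aRB27 (n = 3), against 1696 ± 505 RPM in ESC (n = 4), which is 71.7-fold and 130.4-fold lower. The log2 differences were -6.07 ± 0.84 (SE, limma adjusted p = 1.42e-05) and -7.17 ± 0.74 (adjusted p = 3.31e-07). The day-2 difference of -1.68 ± 0.76 did not pass the threshold (adjusted p = 0.132), although the groups did not overlap.

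CD24 then separated the libraries of days 8 and 10 in GK15. Library 1 had 10.2 RPM on day 8 and 58.1 RPM on day 10, whereas library 2 had 159 RPM on day 8 and 488 RPM on day 10. All 4 titles carry the code MS162, and their running numbers follow each other in library 1 of both days and in library 2 of both days, so that library and running number cannot be told apart. The running numbers of library 2 come shortly after those of left-out libraries of the same code, whose PRDM1 level went against the labelled gate. PRDM1 was 122 and 118 RPM in library 2 of days 8 and 10. Whether the labels of library 2 hold was not tested. The mean over these 4 libraries lay below ESC, with a log2 difference of -4.28 ± 0.68 (SE, limma adjusted p = 4.22e-05), and without library 2 of both days it was -6.00 ± 0.51. HAND1, a transcription factor of the amnion and of extraembryonic mesoderm, was named after its values were seen, and was 73.7 and 253 RPM in library 2 of days 8 and 10 and 9.29 and 20.1 RPM in library 1. GATA3, another of these markers, ran the other way, with 149 and 114 RPM in library 2 and 196 and 131 RPM in library 1. The summed level of the 7 amnion and trophoblast markers was 293 and 488 RPM in library 2 and 231 and 189 RPM in library 1, with VTCN1 and GABRP at 0 in all 4. The summed level of 7 mesenchyme markers was 95.5 and 61.8 RPM in library 2 and 36.2 and 51.2 RPM in library 1. That of blood and endothelial markers ran the other way, with 2.85 and 2.26 RPM in library 2 and 13 and 20.1 RPM in library 1. The part of any of these markers in the CD24 level was not tested.

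PROM1 followed CD24 at lower levels. It had 80.6, 121, 74.3 and 107 RPM in ESC and 59.6 and 78.5 RPM in aRB27 and 58.6 RPM in GK15 on day 2. Levels of 9.79 and 10.6 RPM in aRB27 and 23.2 RPM in GK15 followed on day 4. On day 6 there were 5.08, 24.6 and 3.97 RPM in aRB27 and 5 and 4.22 RPM in GK15, and on days 8 and 10 between 10.2 and 21.1 RPM. Day 2 overlapped with ESC, and from day 4 on no BTAG library reached the ESC range. The day-6 difference was -4.08 ± 0.47 in GK15 (SE, limma adjusted p = 1.82e-06) and -3.37 ± 0.42 in aRB27 (adjusted p = 3.23e-06), and that of days 8 and 10 was -2.44 ± 0.39 (adjusted p = 3.82e-05). That of day 2 was -0.56 ± 0.43 (adjusted p = 0.4).

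THY1 fell with the days of induction. The ESC libraries had 175, 233, 135 and 166 RPM. On day 2 the level was 45.6 and 49.2 RPM in aRB27 and 48.8 RPM in GK15, and on day 4 it was 10.9 and 11.8 RPM in aRB27 and 16.5 RPM in GK15. On day 6 it was 9.31, 7.04 and 8.60 RPM in aRB27 and 5.41 and 4.22 RPM in GK15. Days 8 and 10 in GK15 gave 1.86 and 0.44 RPM and 2.77 and 1.51 RPM, which rest on a few reads each. The ranges of ESC, day 2, day 4, day 6 and the last 2 days together did not overlap.

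Against ESC, THY1 differed by -1.83 ± 0.46 on day 2 (log2 ± SE, limma adjusted p = 0.00651), by -4.92 ± 0.50 on day 6 in GK15 (adjusted p = 3.58e-07), by -4.24 ± 0.44 on day 6 in aRB27 (adjusted p = 3.67e-07) and by -6.13 ± 0.41 on days 8 and 10 (adjusted p = 6.39e-10). The mean of days 8 and 10 was 107.7-fold lower than that of ESC. For CD24, THY1 and PROM1 on day 6 in GK15, the difference within title code MS134 was -5.86, -4.98 and -4.05, and within MS162 it was -6.27, -4.85 and -4.11. For ALPL it was 2.61 and 3.29. All 7 tested genes had the same sign within both codes on day 6, in both media. The libraries of day 2 and of days 8 and 10 all have code MS162, and against the 2 ESC libraries of that code CD24 differed by -1.81 on day 2 and by -4.40 on days 8 and 10.

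CD38 was not detected in BTAG cells or ESC of the monkey at the depth reached. The 15 BTAG libraries held 0 reads of CD38 among their 33303079 reads, which allows up to 0.0901 RPM over these libraries together, and the 4 reporter ESC and 5 transgene-free ESC libraries held none either (up to 0.226 and 0.194 RPM, counting error only). The 0.72 RPM in library 2 of day-4 BT cells stand for 2 reads, and the 1.64 RPM in the GK15 AG mid library for 11 reads. CD38 was under the filter of 10 RPM in 2 libraries in every monkey fit and was not tested.

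The call of a gene asked for an adjusted p below 0.05 together with a log2 difference of 1 or more in size. Of the 7 tested genes, all 7 were called on day 6 in GK15, 4 higher and 3 lower, where 24.8% of the 10701 genes tested were called. The same counts of 4 higher and 3 lower held in aRB27 on day 6 (25.9% of all genes called) and in GK15 on days 8 and 10 (31.1%). On day 2, 3 were higher and 1 lower, and 16% of all genes were called. The median log2 difference of the 7 genes was 2.78, 1.80, 2.84 and 0.26 in GK15 on day 6, in aRB27 on day 6, on days 8 and 10 and on day 2, against 0.01, -0.08, -0.09 and 0.05 over all genes tested. Each time this median was the value of EPCAM, the middle gene of a split set, and not a shift of all 7. These comparisons share the 4 ESC libraries. DPP4, with no read in reporter ESC, passed the filter through induced cells alone and could only be called higher. With all 33 libraries as labelled, 0 of the 7 genes were called by limma on day 6 in GK15 and on day 2 and in the comparisons of sorted fractions given further on, and the adjusted p of the genes called on day 6 in GK15 lay between 0.153 and 0.379.

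**Figure D2:**
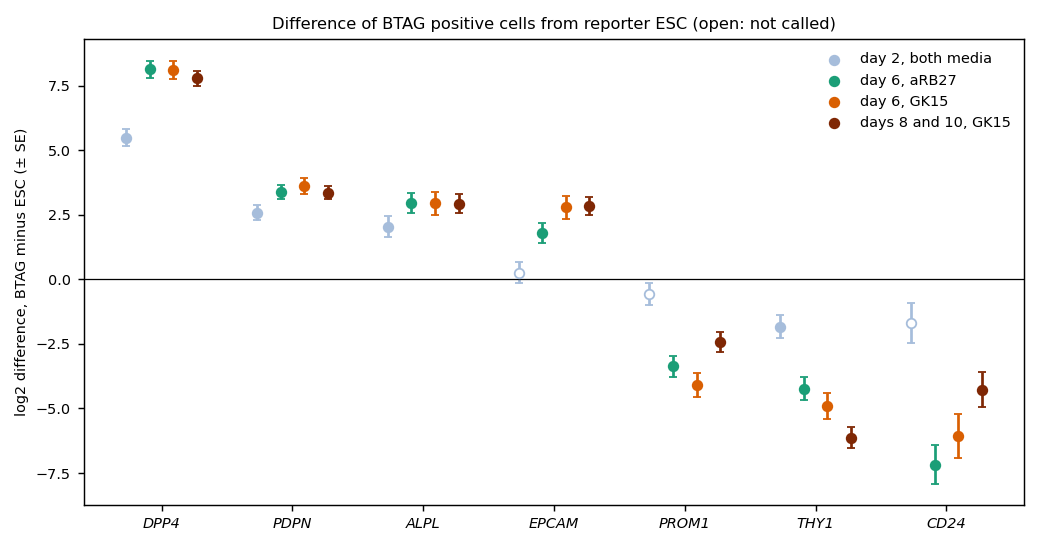
Log2 difference of BTAG cells from reporter ESC (points, with bars of ± 1 SE) for the 7 tested genes on day 2, on day 6 in each medium and on days 8 and 10; open points did not pass the threshold. DPP4 lay highest at 5.48 to 8.13 and CD24 reached the lowest value, -7.17 in aRB27 on day 6.

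The trend with days was fitted across the 15 BTAG libraries with the medium as a covariate, and called at a slope of at least 1 per 8 days. EPCAM rose by 0.36 ± 0.07 per day (log2 ± SE, limma adjusted p = 0.00104) and DPP4 by 0.31 ± 0.09 per day (adjusted p = 0.0139), whereas THY1 fell by 0.53 per day (SE 0.07, adjusted p = 6.10e-05). These are 3 of the 7 tested genes, where 19.4% of 9826 genes were called. The slope of ALPL was 0.11 ± 0.04 per day (adjusted p = 0.0404), below the size asked for, and that of PDPN was 0.08 ± 0.04 (adjusted p = 0.143). CD24 had a slope of -0.40 ± 0.20 (adjusted p = 0.156) and PROM1 of -0.26 ± 0.12 (adjusted p = 0.113). Without library 2 of days 8 and 10, 6 of the 7 genes passed, CD24 with -0.72 ± 0.17 and PROM1 with -0.38 ± 0.13 per day, while the count over all genes was 2072, against 1904 with these libraries. Without library 2 of day 10 alone, 5 passed, and 2112 of all genes. The call of DPP4 was lost in the GK15 libraries alone (0.14 per day, adjusted p = 0.166) and without the GK15 library of day 2 (0.32 per day, adjusted p = 0.0618).

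Between media, aRB27 was compared with GK15 in BTAG cells over days 2, 4 and 6. No surface gene of the 7 tested passed the threshold with limma, edgeR or DESeq2, and 2 of them had an unadjusted p under 0.05 with limma, as had 6.87% of all genes, of which 0.0841% were called. These 2 were EPCAM, at -0.74 ± 0.33 on the log2 scale (aRB27 minus GK15, SE, adjusted p = 0.673), and DPP4, at -0.64 ± 0.27 (adjusted p = 0.628). CD24 differed by -1.20 ± 0.63 (adjusted p = 0.797). On day 6 alone, where 0.159% of all genes were called, EPCAM differed by -0.99 ± 0.46 and did not pass, with 83.4 to 175 RPM in aRB27 and 227 and 266 RPM in GK15, ranges that did not overlap. DPP4 differed by 0.02 ± 0.38 on day 6.

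Among sorted fractions, BT single positive cells carry the PRDM1 reporter without that of TFAP2C. On day 4 in aRB27, 2 of the 7 tested genes were higher and 2 lower than in BTAG cells. CD24 was higher in BT cells, with 248 and 602 RPM against 13.2 and 26.8 RPM in BTAG cells (log2 difference 4.28 ± 0.97, SE, limma adjusted p = 0.00376). PROM1 was higher too, with 64.2 and 33.6 RPM against 9.79 and 10.6 RPM in BTAG cells (2.09 ± 0.55, adjusted p = 0.0111). DPP4 was lower, with 3.98 and 10.1 RPM in BT cells against 185 and 62.3 RPM in BTAG cells (-3.87 ± 0.42, adjusted p = 2.67e-06), and PDPN was lower, with 474 and 499 RPM against 1219 and 1259.8 RPM in BTAG cells (-1.35 ± 0.36, adjusted p = 0.0137). In each of these 4 genes the groups did not overlap, and 15.1% of all genes were called in this comparison. EPCAM (12.9 and 34.4 RPM in BT, 37.4 and 23.7 RPM in BTAG cells), ALPL (97.1 and 268 RPM in BT, 282 and 307 RPM in BTAG cells) and THY1 (25.4 and 3.26 RPM in BT, 10.9 and 11.8 RPM in BTAG cells) did not pass.

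The calls in this comparison changed with each of its 4 libraries. Without library 1 of the BTAG cells 1 gene was called, and without library 2 of either group 2 were called. Without library 1 of the BT cells 3 were called, THY1 among them at -1.54 (limma adjusted p = 0.0431), while PROM1 and PDPN lost their calls. The lower level of DPP4 kept its call each time, with differences between -4.65 and -3.09. PDPN lost its call whichever of the 4 was left out (adjusted p of 0.0606 to 0.0760), with differences between -1.39 and -1.31.

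On day 2 in aRB27 the lone BT library differed from BTAG cells in another way. DPP4 had 120.3 RPM in the BT library, against 25.1 and 29.2 RPM in BTAG cells (log2 difference 2.11 ± 0.51, SE, limma adjusted p = 0.0147), and EPCAM had 184 RPM, against 33.3 and 37.5 RPM in BTAG cells (2.35 ± 0.61, adjusted p = 0.0241). THY1 had 1.02 RPM in the BT library, against 45.6 and 49.2 RPM in BTAG cells (-4.58 ± 0.71, adjusted p = 0.000401). The share of all genes called was 6.94%, and the spread of the lone library was taken from the other groups. The difference of BT from BTAG cells on day 2, less that on day 4, was 5.98 ± 0.66 for DPP4 (adjusted p = 0.000301) and -4.36 ± 0.91 for THY1 (adjusted p = 0.0223), in a test that called 1.05% of all genes. For EPCAM this test gave 2.82 ± 0.79 and did not pass (adjusted p = 0.108).

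The summed level of 8 endoderm markers was 1976 RPM in the BT library of day 2 and 133 and 491 RPM in the BT libraries of day 4, against 6.77 to 50.8 RPM in BTAG cells. None of the 8 was at 0 in all BT libraries of a day, whereas TTR, HNF4A and APOB were at 0 in all BTAG libraries of day 2. The part of these markers in the surface genes was not tested.

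In AG mid positive cells, set against BTAG cells of the same medium and day, 2 genes were higher and 3 lower, where 11.1% of all genes were called. CD24 had 1934 RPM in aRB27 on day 2 and 1591 RPM in GK15 on day 4 in AG mid cells, against 260.01 and 542 RPM and 59.2 RPM in BTAG cells (log2 difference 3.54 ± 0.90, SE, limma adjusted p = 0.0119). PROM1 had 205 and 192 RPM in AG mid cells, against 59.6 and 78.5 RPM and 23.2 RPM in BTAG cells (2.28 ± 0.51, adjusted p = 0.00455). Both AG mid libraries held more PROM1 than any ESC library, whose highest level was 121 RPM.

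DPP4 had 8.25 and 3.14 RPM in AG mid cells of aRB27 and GK15, against 25.1 and 29.2 RPM and 163.5 RPM in BTAG cells (-3.46 ± 0.39, SE, limma adjusted p = 4.55e-06). PDPN had 277 and 82.2 RPM in AG mid cells, against 751 and 790.01 RPM and 1629.8 RPM in BTAG cells (-2.88 ± 0.34, adjusted p = 7.78e-06). ALPL had 25.6 and 24.5 RPM in AG mid cells, against 152.5 and 137 RPM and 259 RPM in BTAG cells (-2.90 ± 0.48, adjusted p = 0.00031). EPCAM had 51.2 and 179 RPM in AG mid cells, against 33.3 and 37.5 RPM and 51.0 RPM in BTAG cells, and did not pass (1.15 ± 0.47, adjusted p = 0.134), nor did THY1 with 30.1 and 5.98 RPM in AG mid cells, against 45.6 and 49.2 RPM and 16.5 RPM in BTAG cells (-0.98 ± 0.54, adjusted p = 0.309).

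Each AG mid group rests on 1 library, and the GK15 AG mid library has title code MS134 where its BTAG counterpart has MS162, so code and gate cannot be told apart there. In aRB27 on day 2 alone, where all libraries share MS162, ALPL alone was called (-2.45 ± 0.63, SE, limma adjusted p = 0.03), with DPP4 at -1.60 (adjusted p = 0.0958), PDPN at -1.47 (adjusted p = 0.0755), CD24 at 2.36 (adjusted p = 0.413) and PROM1 at 1.57 (adjusted p = 0.275). The difference in aRB27 on day 2, less that in GK15 on day 4, was 3.71 ± 0.78 for DPP4 (adjusted p = 0.0542) and 2.82 ± 0.68 for PDPN (adjusted p = 0.0994), neither past the threshold, where 0.252% of all genes were called. The summed level of 7 amnion and trophoblast markers was 3621 and 3463 RPM in the AG mid libraries, with none at 0, against 189 to 699.8 RPM in BTAG cells. The summed level of 7 mesenchyme markers was 86.7 RPM in the AG mid library of aRB27 and 477 RPM in that of GK15. In BTAG cells of the same medium and day it was 78.3 and 131 RPM in aRB27 and 52.5 RPM in GK15. The part of either marker set in the surface genes of AG mid cells was not tested.

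**Figure D3:**
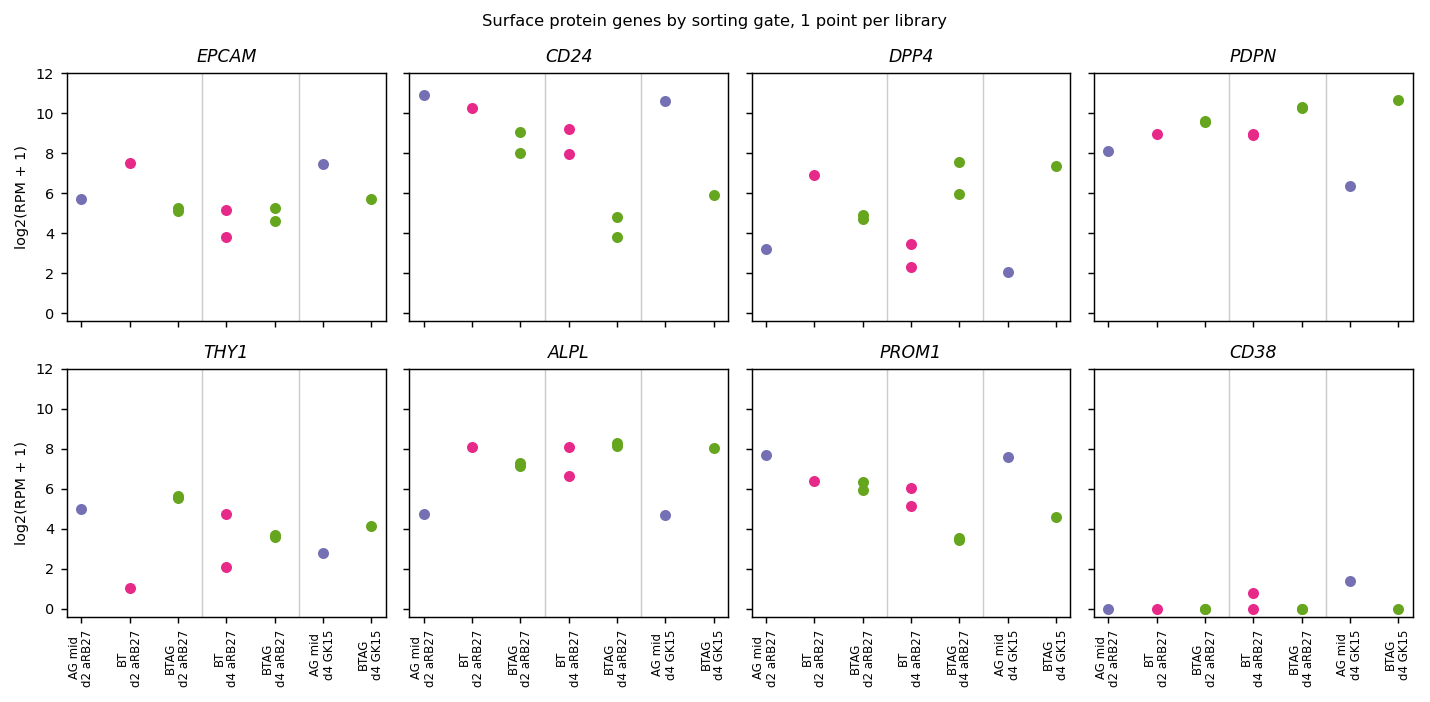
Level of each gene as log2(RPM + 1) in AG mid, BT and BTAG libraries (1 point per library), with vertical lines between the media and days compared. BTAG libraries held the most PDPN in each block, AG mid libraries the most CD24 and PROM1, and DPP4 in BT cells lay above BTAG cells on day 2 and below them on day 4.

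Over the 13 groups of the 24 libraries, the group means of log2(RPM + 1) fell into a few patterns, given here as a description since the groups belong to a single design. CD24 and PROM1 ran together (Pearson r = 0.95), as did PDPN with ALPL (r = 0.91), DPP4 with PDPN (r = 0.90) and DPP4 with ALPL (r = 0.87). CD24 ran against PDPN (r = -0.82) and DPP4 (r = -0.75). EPCAM ran against THY1 (r = -0.75) and had weaker relations to PDPN (r = 0.18) and CD24 (r = -0.21). THY1 was related to CD24 by r = 0.36 and to PROM1 by r = 0.39.

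**Figure D4:**
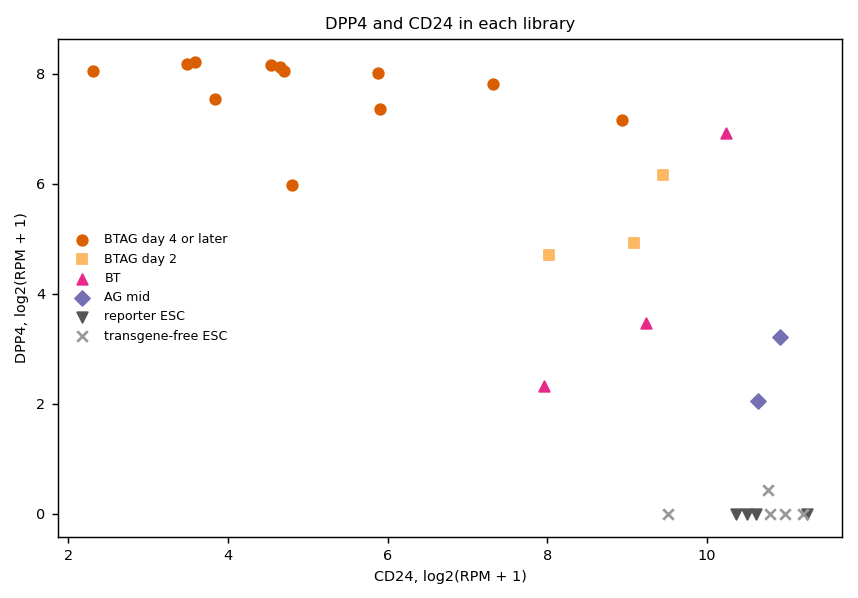
DPP4 against CD24, both as log2(RPM + 1), in each of the 29 kept monkey libraries, marked by group. ESC lie at the lower right with at most 0.36 RPM of DPP4. The BTAG libraries of day 4 or later lie at 62.3 RPM of DPP4 or more, most of them left of the day-2 BTAG libraries in CD24, with library 2 of GK15 day 10 inside the CD24 range of day 2.

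The genes most like each surface gene were ranked by Pearson's r over the same 13 groups among 10701 genes. For EPCAM these were SPINT1 (r = 0.94), ST14 (r = 0.93) and CRYL1 (r = 0.91). SPINT1 encodes an inhibitor of the membrane serine protease that ST14 encodes. For DPP4 they were KIT (r = 0.95), the receptor for stem cell factor, CHST3 (r = 0.95) and HYAL1 (r = 0.94). For PDPN they were OSTM1, SLC30A4 and LPAR6 (r = 0.96 each), and for ALPL MICAL1 (r = 0.97), SLC30A4 (r = 0.95), a zinc transporter, and ARRB1 (r = 0.94). CD24 was most like SPARC (r = 0.96), PROM1 and PLD3 (r = 0.94), and PROM1 like CD24, SPARC and PLD3 (r = 0.95 each). For THY1 they were JAM2 (r = 0.93), a junctional adhesion molecule, RAB39A (r = 0.93) and CCDC88A (r = 0.90).

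Among other surface proteins of germ cells, KIT and CXCR4 rose the most. Of 8 tested genes among the 11 listed, 5 were higher and none lower on day 6 in GK15, with a median log2 difference of 1.77 against 0.01 over all genes, and 6 were higher in aRB27. Over all genes, 24.8% were called in GK15 and 25.9% in aRB27 on day 6. Listed genes under the filter were not counted. KIT and CXCR4, near the floor in ESC, passed the filter through other cells and could hardly be called lower. The list was also chosen with earlier results of these data known, so its one-sided count is a description. KIT was 350 ± 123 RPM in GK15 (SD, n = 2) against 1.21 ± 1.401 RPM in ESC (n = 4), a log2 difference of 7.47 ± 0.72 (SE). CXCR4, the receptor for CXCL12, was 184 ± 6.51 RPM in GK15 against 4.05 ± 3.41 RPM in ESC. IL6ST, the shared receptor chain of LIF signalling, differed by 2.94 ± 0.30 on the log2 scale (SE), and PECAM1, an adhesion molecule, by 1.83 ± 0.62. CXCL12 itself, the chemokine that DPP4 trims, fell to 0.925 ± 0.46 RPM in GK15 on day 6, against 82.1 ± 28.2 RPM in ESC, and had 1227 and 1766 RPM in the AG mid libraries.

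Of 14 tested surface proteins of pluripotent cells, 0 were higher and 6 lower on day 6 in GK15 (median -0.80 against 0.01 over all genes), and 1 was higher and 5 lower in aRB27. The share of all genes called on day 6 was 24.8% in GK15 and 25.9% in aRB27. GPC4, a glypican, was 1.02 ± 0.27 RPM in GK15 (SD, n = 2) against 499.6 ± 238 RPM in ESC (n = 4). L1CAM, a neural adhesion molecule, was 0.51 ± 0.13 RPM in GK15 against 84.03 ± 17.6 RPM in ESC. PODXL, a sialomucin of pluripotent cells, was 12.9 ± 4.74 RPM in GK15 against 273 ± 121 RPM in ESC. CD44, a hyaluronan receptor, was 1.55 ± 1.34 RPM in GK15 against 20.7 ± 3.37 RPM in ESC. In BT cells of day 4, 6 of the 14 were higher than in BTAG cells and none lower (median 0.37 against 0.07 over all genes), where 15.1% of all genes were called, GPC4 with 174 ± 51.7 RPM among them.

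GPI-anchored proteins other than the 8 moved in both directions, 5 of 13 tested higher and 3 lower on day 6 in GK15 (median 0.34 against 0.01 over all genes), with the same counts in aRB27. Of all genes, 24.8% were called in GK15 and 25.9% in aRB27. CD59, a complement inhibitor, was 586 ± 4.80 RPM in GK15 (SD, n = 2) against 68.1 ± 18.7 RPM in ESC (n = 4), and PRNP, the prion protein, was 162 ± 18.3 RPM in GK15 against 9.32 ± 2.91 RPM in ESC. LY6E was 251 ± 116 RPM in GK15 against 14.04 ± 5.20 RPM in ESC. EFNA1, an ephrin ligand, differed by 2.64 on the log2 scale.

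Of 13 tested partners and substrates of the 8 proteins, 2 were higher and 5 lower on day 6 in GK15 (median -0.67 against 0.01 over all genes), and 1 higher and 7 lower in aRB27. Here too, 24.8% of all genes were called in GK15 and 25.9% in aRB27. ANKH, which raises extracellular pyrophosphate, a substrate of ALPL, was 111 ± 41.7 RPM in GK15 (SD, n = 2) against 14.03 ± 4.87 RPM in ESC (n = 4). CAV1, a caveolar protein that binds DPP4, was 3.66 ± 1.64 RPM in GK15 against 251 ± 200.4 RPM in ESC, and CXCL12 is given above. Of related or like-named genes, the 3 tested did not pass in GK15. The log2 differences were -0.86 ± 0.58 for BST1, a paralog of CD38 (SE, limma adjusted p = 0.295), -0.50 ± 0.35 for DPP8 (adjusted p = 0.306) and 0.13 ± 0.37 for DPP7, a peptidase of like name (adjusted p = 0.828).

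Reporter ESC were also set against ESC of lines without transgenes. EPCAM was lower in reporter ESC, with 36.8, 69.9, 30.8 and 18.3 RPM, against 312 and 81.6 RPM in CMK6, 42.8 RPM in the line 656, 155 RPM in 681F and 85.4 RPM in the line 22 (log2 difference -1.60 ± 0.44, SE, limma adjusted p = 0.0487). The ranges overlapped, 1 of the 7 tested genes was called and 2.57% of all genes were, and the call was lost under 11 of 17 other settings, with an adjusted p of at most 0.267. Without the CMK6 library of 312 RPM the difference was -1.22. CDH1, the epithelial cadherin, was 0.44, 4.32, 0.88 and 0.54 RPM in reporter ESC, against 41.9 and 23.5 RPM in CMK6, 0.98 RPM in 656, 22.5 RPM in 681F and 2.85 RPM in 22. The line 656 carries the number of the reporter lines, and in its single library EPCAM and CDH1 lay inside the range of reporter ESC. CDH1 of the line 22 lay inside that range too. THY1 of 656, at 129.9 RPM, lay below the 135 to 233 RPM of reporter ESC. The part of the line in these differences was not tested.

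CD24, at 729 to 2361 RPM in lines without transgenes, PDPN, at 56.3 to 296 RPM, ALPL, at 19.1 to 78.9 RPM, and PROM1, at 47.2 to 106 RPM, overlapped with reporter ESC. THY1 had 54.1 to 129.9 RPM in these lines, below the 135 to 233 RPM of reporter ESC, and did not pass (1.00 ± 0.38, SE, limma adjusted p = 0.143). The title codes of these lines occur in no reporter library, so code and line cannot be told apart. DPP4 was absent from 4 of the 5 libraries and had a single read, 0.36 RPM, in CMK6 library 2.

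In mouse PGCLC, day 6 was set against day 4 in GK15 for the 5 orthologs that passed the filter. Cd24a (chromosome 10, 43578284 to 43584265, plus strand of GRCm38, in GENCODE vM21) had 86.9 and 133 RPM on day 6, against 414 and 342 RPM on day 4 (log2 difference -1.80 ± 0.18, SE, limma adjusted p = 0.000692), where 2.59% of 8255 genes were called. The call was lost without either day-6 library (adjusted p of 0.31 without library 1 and 0.207 without library 2) and with no filter on low values (adjusted p = 0.312). Epcam (chromosome 17, 87635979 to 87651129, plus strand) had 147 and 157 RPM on day 6 and 181 and 146 RPM on day 4. Pdpn had 92.8 and 89.6 RPM on day 6 and 72.9 and 103 RPM on day 4, Alpl had 118 and 107 RPM on day 6 and 84.4 and 124 RPM on day 4, and Prom1 had 10.5 and 16.1 RPM on day 6 and 21.6 and 18.1 RPM on day 4. None of these 4 passed, and Prom1 showed no overlap between the days (-0.57 ± 0.29, adjusted p = 0.324).

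Mouse and monkey were normalized in separate tables, so levels of the species are set side by side without a test. DPP4 had 264 and 285 RPM on day 6 and 163.5 RPM on day 4 in GK15 BTAG cells of monkey, where mouse Dpp4 (chromosome 2, 62330073 to 62412231, minus strand) had 0.84 and 1.21 RPM on day 6 and 1.77 and 2.21 RPM on day 4. PDPN had 1717 and 1408 RPM on day 6 in monkey GK15 cells, where mouse Pdpn had 92.8 and 89.6 RPM. CD38 had no read in monkey BTAG cells, where mouse Cd38 had 7.97 and 9.28 RPM on day 6 and 4.42 and 8.40 RPM on day 4. Thy1 was at 0 in 3 mouse libraries and at 0.44 RPM in library 1 of day 4.

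**Figure D5:**
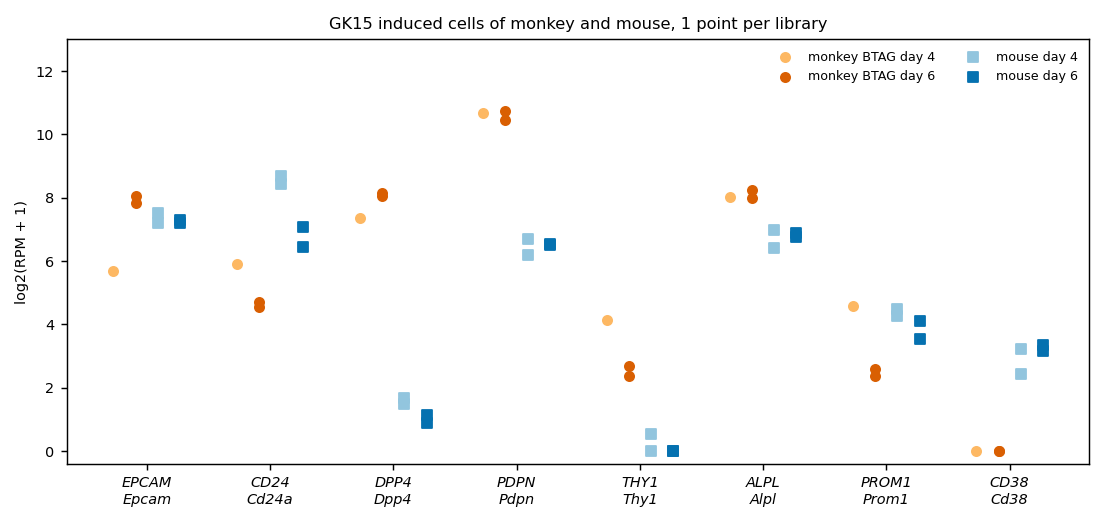
Level of each gene as log2(RPM + 1) in GK15 BTAG cells of monkey and in mouse PGCLC on days 4 and 6 (1 point per library), normalized in separate tables. Monkey cells held more DPP4 and PDPN and mouse cells more Cd38, and the highest day-6 level of CD24 lay below the lowest day-4 level in both species. Monkey day 4 is a single library here, and in aRB27 (not drawn) the CD24 levels of days 4 and 6 overlapped.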

How the data were processed

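RNA from the 3′ ends of transcripts was sequenced from 1 ng of total RNA in 38 monkey and 4 mouse libraries. The authors deposited the values as RPM. Per the submitters' processing notes, the tools were Cufflinks 2.2.0, TopHat 1.4.1 and cutadapt 1.3 and the mouse build was GRCm38, with no step stated for any of them. For monkey, a build was not given in the sources used here, nor how strand and shared reads were counted. RPM values up to 100 steps were whole multiples of a read's value within 0.1 steps for 99.38% to 99.76% of values in kept monkey libraries, and reads were recovered from them.

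Tests used limma 3.58.1 in R 4.3.3 on log2(RPM + 1), with genes of at least 10 RPM in at least 2 libraries, a spread shared over the groups of a fit, and Benjamini-Hochberg adjustment over all genes tested. Calls asked for an adjusted p below 0.05 and a log2 difference of 1 or more. Alternatives were tests of the recovered reads by edgeR 4.0.16 and by DESeq2 1.42.0, other pseudocounts, filters and scalings, all 33 libraries as labelled, and leaving out libraries. The fits by all 3 tools were tested on simulated data. Groups followed the labels, apart from the 9 libraries left out.

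The 8 genes and the other lists were chosen with earlier results of these data known, and the tests of differences between days and media of the sorted fractions were added after the data were seen. Named genes were the 8 genes, up to 4 called genes of each list with the largest difference, and the 3 genes most like each of the 8.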

Additional observations from a re-analysis of the deposited data

Results flagged for a closer look

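In the groups of 4 to 5 libraries, a library was picked out where its gap to the nearest other library took up most of the group's range, which chance alone gives in about 1 of 20 groups, and 13 sets of values that were not all 0 were examined this way. PDPN in library 4 of reporter ESC, at 261.83 RPM, stood apart from the 90.1 to 118 RPM of the other 3 libraries. DPP4 in library 2 of transgene-free ESC, at 0.36 RPM, stood apart from 4 libraries at 0, and stands for a single read. The rule picks out any lone library above 0 among libraries at 0, so the rate of 1 of 20 does not hold there.

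The difference of BT from BTAG cells in aRB27 was not the same on both days for 2 genes. On day 2, less day 4, it was 5.98 ± 0.66 for DPP4 (log2 ± SE, limma adjusted p = 0.000301) and -4.36 ± 0.91 for THY1 (adjusted p = 0.0223), with a single BT library on day 2.

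Among libraries left out, the library labelled reporter ESC library 5 held DPP4 at 94.29 RPM, where the 4 kept reporter ESC libraries held no read of it.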

How the results depend on the processing

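No paired analysis was possible because the labels give no replicate numbers. With the title code as a covariate, fitted for 7 of the comparisons, each count of surface genes called stayed within 1.5 times the reported one. Of 163 alternative counts of surface genes called, 137 stayed within 1.5 times the reported count. This tally compares counts and not genes, and it includes the comparison of media, where no surface gene was called. BT cells on day 2 alone fall within it, although other genes were called there and DPP4 changed sign. Of 1117 alternative values of single surface genes, 1007 kept their direction and side of the threshold, 57 lost a call, 14 gained one and 39 changed sign. The cause was not tested, other than that leaving out libraries leaves fewer samples. Leaving out the lone library of a group gave no value, except for the slope, which is fitted across groups.

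With all 33 libraries as labelled, 0 surface genes were called on day 6 in GK15 (reported 7), on day 2 (4), in BT cells of day 4 (4), in AG mid cells (5) and between ESC lines (1), and 5 for the slope (3). The slope count was 6 without library 2 of days 8 and 10, an alternative chosen after seeing the data, and 2 to 5 with single libraries left out. The BT count was 2 with no filter, 3 on day 2 alone and 1 to 3 with single libraries left out. The AG mid count was 1 in aRB27 on day 2 alone. The ESC count was 0 with a pseudocount of 0.1, with no filter and with a mean of at least 20 RPM, and 0 to 1 with single libraries left out. The mouse count was 0 with no filter and 0 to 1 with single libraries left out.

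Signs turned as follows, on the log2 scale, none of them in a surface gene called in the reported fit except DPP4 in BT cells. As labelled, the day-2 value of PROM1 was 0.20, the medium difference was 1.10 for DPP4, 1.13 for PDPN and -0.30 for THY1, and the ESC difference was -0.14 for CD24, 1.23 for DPP4, 0.44 for PDPN and 0.069 for ALPL. With a pseudocount of 10, THY1 was -0.013 between media and 0.019 in BT cells. With edgeR and DESeq2, PROM1 was 0.15 and 0.17 between media, THY1 was 0.21 and 0.25 in BT cells, and CD24 was -0.062 and -0.058 between ESC lines. On day 6 alone the medium difference was 0.021 for DPP4 and 0.71 for PROM1. On day 2 alone BT cells gave 2.35 for EPCAM, 2.11 for DPP4 and 0.87 for ALPL. With single libraries left out, the day-2 value of EPCAM ran from -0.041 to 0.58. The medium difference then ran from -0.0035 to 0.10 for THY1, from -0.024 to 0.14 for ALPL and from -0.31 to 0.088 for PROM1. The BT difference ran from -1.14 to 0.20 for EPCAM and from -1.54 to 1.09 for THY1. The ESC difference ran from -0.25 to 0.17 for CD24, from -0.41 to 0.22 for PDPN and from -0.67 to 0.10 for ALPL. In mouse the range was -0.25 to 0.058 for Epcam, -0.18 to 0.32 for Pdpn and -0.15 to 0.40 for Alpl.

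Counts over all genes called also moved. With a mean of at least 20 RPM they were 1464 on day 6 in GK15 (reported 2649), 1538 in aRB27 (2770), 963 on day 2 (1714) and 1804 on days 8 and 10 (3329). As labelled they were 0 on day 6 in GK15, 136 on day 2, 403 in BT cells (1619) and 0 in AG mid cells (1184). The slope gave 1104 in GK15 alone (1904), the media 1 to 49 (9), the ESC lines 74 to 528 (283) and mouse 0 to 244 (214). THY1 after day 6, DPP4 in ESC and CD38 rest on so few reads that depth limits them.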
